A study of Mus musculus with 4 samples.

Results

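Genes of cytochrome P450 families 1 to 4 were followed across 4 expression arrays of mouse intestinal organoids. The members were taken by their symbol (Cyp, a family digit from 1 to 4, a letter and a number) among probe sets that name 1 gene, which gave 56 of the 18193 genes on the array, read by 69 of its 45101 probe sets. Where a gene had several probe sets, the brightest by mean over the 4 arrays stood for it, so each probe set was selected on its measured level, while the symbol alone selected the gene. The group was proposed with results of these arrays in view, among them the lower Cyp2s1, Cyp4f14 and Cyp3a11 after 4OHT, so those directions are description and not independent evidence. All 56 matched a RefSeq gene record by identifier, and 2 of them, Cyp2d13 and Cyp4f41-ps, are recorded there as pseudogenes.

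The organoids, epithelial cultures in Matrigel, carried floxed Apc alleles (Apc fl/fl) in every group. The Apc protein keeps Wnt signalling low by holding together the machinery that destroys beta-catenin. At each of day 4 and day 6, organoids that had been exposed to 4-hydroxytamoxifen (4OHT) for 24 h, which the labels call Apc-deficient, and untreated organoids were collected, each on a single array. The source of the recombinase and the part of Apc that it removes are not given in the sources used here. No array held 4OHT-treated organoids without the floxed alleles, so the drug and the deletion cannot be told apart. The labels do not say whether the 4 arrays came from separate cultures.

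Cytochrome P450 enzymes are heme proteins of the endoplasmic reticulum that insert oxygen into their substrates, with electrons passed on by P450 oxidoreductase. Families 1 to 3 oxidise drugs, dietary compounds and steroids, and family 4 hydroxylates fatty acids and eicosanoids. In the small intestine they are best known from enterocytes, where they act on compounds taken up from the lumen before these reach the liver.

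Values are linear probe-set intensities, and differences are on the log2(intensity + 16) scale, which holds back changes of dim genes. The median intensity was 21.9 and 22.0 on the arrays of day 4, 19.3 and 19.5 on those of day 6, and the scaling of one day against the other is unknown. The targeted gene did not check the labels, since the positions of its probes relative to the deleted part are unknown: the brightest of 4 Apc probe sets read 27.2 and 57.7 at day 4 (untreated, 4OHT) and 99.6 and 170 at day 6, and another moved down at day 4 and up at day 6. The log2 gap between 3' and 5' Actb probe sets, a sign of RNA quality, was larger with 4OHT on both days (2.96 and 3.90 at day 4, 1.72 and 2.34 at day 6). The mean log2 intensity of 9 hybridization control probe sets was 12.2 untreated and 11.8 with 4OHT at day 4, and 9.79 and 10.7 at day 6, lowest on the untreated day 6 array, where the bright P450 genes were highest. Enterocyte markers stood with the P450 genes: 9 of 18 fell and none rose, and their summed intensity was 5260 untreated and 2607 with 4OHT at day 4, 18654 and 9024 at day 6. All 5 analysed Paneth cell markers (3 others listed are not analysed here) and 4 of 8 crypt base stem cell markers rose. Of 8 goblet cell markers 2 fell and 3 rose, and of 12 enteroendocrine markers 2 rose. Over the 13192 genes tested with limma, 2.25% fell and 0.970% rose. The part of RNA quality, of the control intensities and of these cell types in the results below was not tested, and in such bulk samples fewer cells of a type and less RNA per cell cannot be told apart. Of 5 tested hepatocyte markers, 2 fell (Ttr, -0.87, and Apoc3, -1.24) and none rose; Cps1, Apoc3 and Ttr were bright on every array, while the defining markers albumin (Alb), fibrinogen (Fgb) and Cyp7a1 lay under the median of all values throughout.

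Levels of the P450 genes ran from near background to 2244. A level filter kept genes whose highest value reached the median of every value on the arrays, 20.9, and 28 of the 56 passed it. The other 28 members (50%) lay under the median on all 4 arrays, against 27.5% of all genes. The filter passed Cyp2j11 (highest value 24.2), Cyp1a2 (21.8) and Cyp1b1 (21.0) most narrowly and left out Cyp1a1 (19.9), Cyp2d34 (18.0) and Cyp4f41-ps (17.1) most narrowly. Only 17 members were at or above the median on all 4 arrays.

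**Figure D1:**
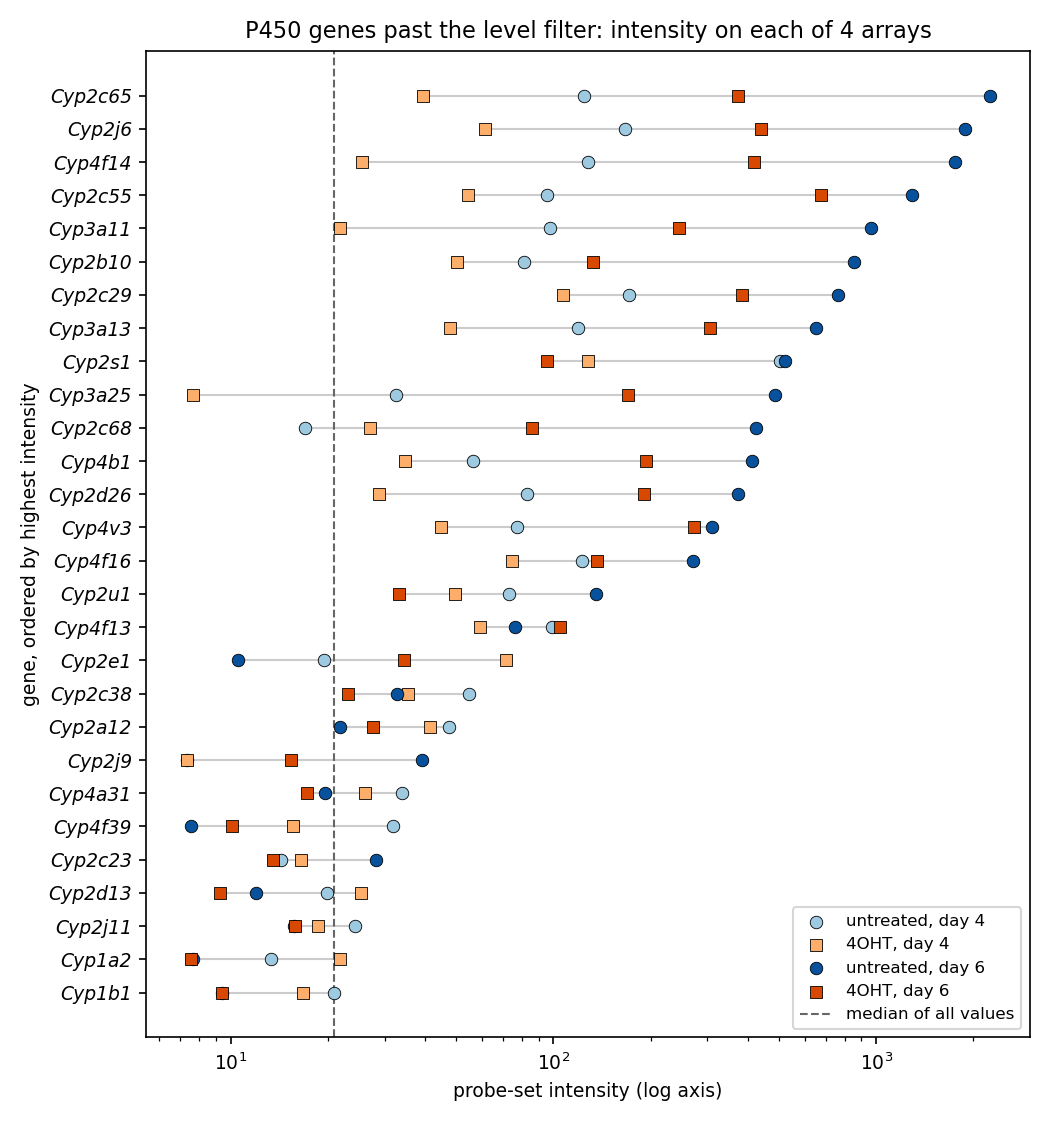
Probe-set intensity (log axis) of the 28 P450 genes past the level filter, with 1 point per array: circles are untreated and squares 4OHT, pale for day 4 and dark for day 6, and the dashed line is the median of all values, 20.9. In most bright genes the untreated day 6 array lies farthest right (Cyp2c65 at 2244), while the circles of Cyp2s1 coincide and Cyp2e1 runs the other way.

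The promoters of 5 genes on which the results turn are shown here from the RefSeq table (GRCm38.p6), each from 250 bases before to 50 after a gene start: neighbours Cyp3a11 and Cyp3a25, which both fell; Cyp2c65, the brightest member; Cyp2s1, whose untreated arrays differed little between the days as deposited; and Cyp2e1, which rose. Capitals mark matches on either strand to GCGTG (the core bound by the Ahr), AGGTCA (a nuclear receptor motif), TTTATNG (a Cdx site), CAAAG (a core shared by Hnf4a and Tcf sites) and CAAAGTCCA, a longer Hnf4a-type site that contains CAAAG and was added after the sequences were seen.

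Cyp3a11, chr5:145879805-145880104, minus strand: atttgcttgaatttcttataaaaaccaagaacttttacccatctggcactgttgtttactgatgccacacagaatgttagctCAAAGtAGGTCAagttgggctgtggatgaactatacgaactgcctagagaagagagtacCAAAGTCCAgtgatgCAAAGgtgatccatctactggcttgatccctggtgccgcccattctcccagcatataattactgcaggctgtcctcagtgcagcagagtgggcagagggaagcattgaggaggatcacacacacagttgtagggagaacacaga
Cyp3a25, chr5:146009568-146009867, minus strand: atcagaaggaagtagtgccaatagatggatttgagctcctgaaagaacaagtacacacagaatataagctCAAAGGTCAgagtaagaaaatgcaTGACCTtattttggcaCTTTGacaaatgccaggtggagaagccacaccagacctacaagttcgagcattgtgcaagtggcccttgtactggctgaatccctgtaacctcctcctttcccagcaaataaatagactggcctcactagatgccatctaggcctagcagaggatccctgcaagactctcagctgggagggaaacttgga
Cyp2c65, chr19:39060756-39061055, plus strand: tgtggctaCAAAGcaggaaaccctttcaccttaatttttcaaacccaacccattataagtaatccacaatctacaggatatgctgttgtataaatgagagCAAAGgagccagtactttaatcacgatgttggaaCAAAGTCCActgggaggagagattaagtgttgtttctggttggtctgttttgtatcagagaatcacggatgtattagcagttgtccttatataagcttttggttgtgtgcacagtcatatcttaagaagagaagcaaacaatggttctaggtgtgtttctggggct
Cyp2s1, chr7:25816476-25816775, minus strand: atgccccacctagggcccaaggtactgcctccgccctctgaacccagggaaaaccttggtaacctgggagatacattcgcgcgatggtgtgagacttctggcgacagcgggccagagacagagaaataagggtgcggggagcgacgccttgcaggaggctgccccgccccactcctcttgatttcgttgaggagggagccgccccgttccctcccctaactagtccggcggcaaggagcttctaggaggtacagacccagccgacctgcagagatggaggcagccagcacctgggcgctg
Cyp2e1, chr7:140763569-140763868, plus strand: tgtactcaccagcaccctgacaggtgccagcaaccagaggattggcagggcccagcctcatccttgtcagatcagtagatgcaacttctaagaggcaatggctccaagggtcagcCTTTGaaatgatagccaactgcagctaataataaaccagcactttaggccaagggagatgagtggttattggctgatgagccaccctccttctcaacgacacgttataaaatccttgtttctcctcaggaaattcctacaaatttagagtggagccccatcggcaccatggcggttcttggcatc

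The Cyp3a11 and Cyp2c65 windows both hold CAAAGTCCA, and Cyp3a25 instead holds CAAAG overlapping AGGTCA. The Cyp2s1 window has none of these letters and a GC content of 63%, against 46.3% for Cyp3a11 and 39.7% for Cyp2c65. Cyp2e1 has a single CAAAG on the minus strand. Of the 56 members, 43 had a promoter in the table, 9 of the 10 that fell among them (Cyp2u1 did not). CAAAG was in 37 of the 43 (86.0%) and in 53.9% of all 32851 promoters of that length. CAAAGTCCA was in 5 (11.6%: Cyp2c65, Cyp2c68, Cyp2c70, Cyp3a11 and Cyp3a16) and in 0.475% of all. AGGTCA was in 12 (27.9%) and in 16.3% of all, TTTATNG in 8 (18.6%) and in 10.9%, and GCGTG in 11 (25.6%) and in 32.4%. TATAAA, also searched after the sequences were seen and not capitalised, was in 18 (41.9%) and in 13.6%. Among the 9 that fell, 8 held CAAAG, 2 AGGTCA, 2 CAAAGTCCA, 1 TTTATNG and 2 GCGTG, while Cyp2c70 and Cyp3a16 held CAAAGTCCA and stayed under the level filter. Members that arose by gene duplication share sequence, and their median GC content was 49.7% against 52.7% over all promoters, so these shares describe the windows and were not tested.

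Most bright P450 genes were lower with 4OHT on both days. At day 4, 8 of the 28 past the filter were at least 2-fold lower and 1 was at least 2-fold higher, against 1.22% and 1.0% of the 13192 genes past the filter. At day 6, 11 were lower and none higher, against 2.97% and 0.879%. On both days 7 were at least 2-fold lower (Cyp2c65, Cyp2j6, Cyp4f14, Cyp3a11, Cyp3a13, Cyp2s1 and Cyp3a25), which is 7 of the 8 of day 4 and 7 of the 11 of day 6, against 0.796% of genes; none was higher on both, against 0.205%. Whatever the size of the difference, 18 of the 28 were lower on both days and 1 was higher, against 26.0% and 32.0% of genes. Their median difference was -0.57 at day 4 and -0.91 at day 6, and that of all genes past the filter 0.06 and -0.00. Cyp2j9 and Cyp2c23 passed the filter through the untreated day 6 array alone, which by itself favours a lower 4OHT value at day 6. With the filter on the mean, which leaves both out, the medians of 21 members were -0.61 and -1.03. By limma with 4OHT and day as terms, adjusted by Benjamini-Hochberg over the 13192 genes at a threshold of 0.05, 10 of the 28 fell and 1 rose, against 2.25% and 0.970% of genes. Its error has 1 residual degree of freedom, the disagreement of the 2 days, so it does not measure the spread between cultures. Limma combines that with 15.2 prior degrees of freedom taken from all genes past the filter (prior SD 0.215). The SE of a gene therefore mostly reflects this shared value and not the gene's own agreement between the days. With no level filter or with a pseudocount of 64, limma called no gene at all, although 2050 of 18193 and 1644 of 13192 genes had an unadjusted p under 0.05. The difference on a single day cannot change its sign under either setting, so directions do not bear on these lost calls. A pseudocount of 1 left 4 lower calls (Cyp2c65, Cyp4f14, Cyp3a11 and Cyp2s1) and that of Cyp2e1.

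**Figure D2:**
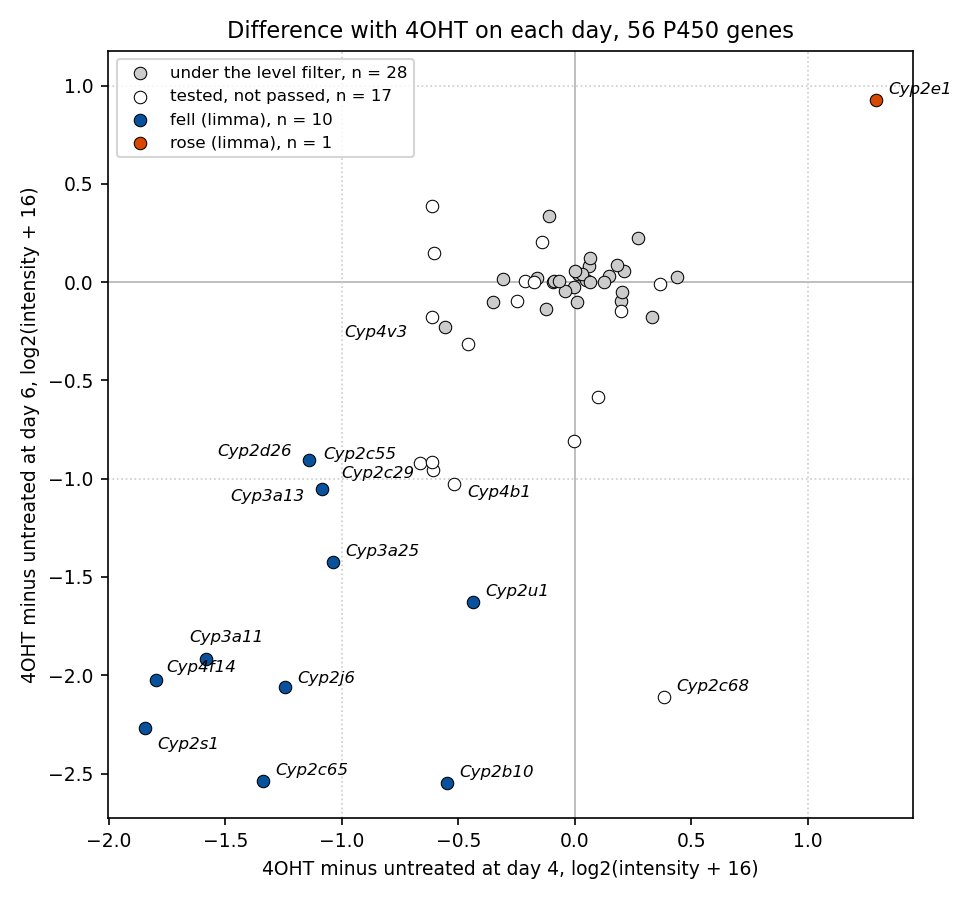
Difference between 4OHT and untreated at day 4 (x axis) and at day 6 (y axis) on the log2(intensity + 16) scale, with 1 point per P450 gene; blue fell and orange rose by limma, white was tested and did not pass, grey lay under the level filter, and dotted lines mark 2-fold. The 10 blue points fill the lower left, Cyp2e1 lies alone at the upper right, and the grey points stay near 0.

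In the Cyp3a subfamily, which holds the main drug-oxidising P450 enzymes and is a classic target of the pregnane X receptor (Pxr, gene Nr1i2), 3 of 5 members passed the filter and all 3 fell. Cyp3a11, the mouse gene most used as counterpart of human CYP3A4, read 97.3 untreated and 21.8 with 4OHT at day 4, and 967 and 244 at day 6. Both 4OHT arrays lay below the untreated array of their day, but the 4OHT array of day 6 lay above the untreated array of day 4. Its differences were -1.58 and -1.92, and limma gave -1.75 ± 0.21 (SE, adjusted p = 0.000215). Cyp3a25, its neighbour on chromosome 5 and shown above with it, read 32.6 and 7.66 at day 4 and 485 and 171 at day 6. That is 2.05-fold and 2.68-fold lower with 4OHT, where the 4OHT value of day 4 lies under the median and holds the first fold back; limma gave -1.23 ± 0.21 (adjusted p = 0.0034). Cyp3a13, on the same chromosome but apart from that cluster, read 119 and 47.8 at day 4 and 649 and 305 at day 6. It was lower by nearly the same amount on each day (-1.09 and -1.05; limma -1.07 ± 0.21, adjusted p = 0.0075). The remaining Cyp3a44 and Cyp3a16, which lie beside Cyp3a11, did not exceed 7.37 on any array.

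The Cyp2c subfamily, whose enzymes oxidise drugs and arachidonic acid, was the largest, with 11 members, of which 6 passed the filter and 1 fell. Cyp2c65 read 125 untreated and 39.6 with 4OHT at day 4, and 2244 and 373 at day 6. It was the brightest member on the untreated day 6 array and was 2.53-fold lower with 4OHT at day 4 and 5.82-fold lower at day 6 (limma -1.94 ± 0.26, adjusted p = 0.000506). Its single probe set is of the kind marked _s_at, whose probes match more than 1 transcript, so signal from a close relative cannot be told apart. Cyp2c55, next to it on chromosome 19, read 95.8 and 54.5 at day 4 and 1294 and 676 at day 6. Its differences were smaller, -0.67 and -0.92, and missed the threshold (limma, adjusted p = 0.051). Cyp2c29, the next gene, read 172 and 107 at day 4 and 760 and 384 at day 6, and missed it likewise (-0.61 and -0.96; limma, adjusted p = 0.0589). Both were lower with 4OHT on each day by less than 2-fold. Cyp2c68 read 17.0 and 27.1 at day 4 and 425 and 86.1 at day 6. Its days pointed opposite ways, 0.38 and -2.11, where the day 4 values lie about the median of all values (limma, adjusted p = 0.305). Cyp2c38 was faint (23.2 to 54.7) and Cyp2c23 fainter (13.5 to 28.2); Cyp2c37, Cyp2c39, Cyp2c50, Cyp2c54 and Cyp2c70 lay under the filter.

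Cyp2j6, of a subfamily that oxidises arachidonic acid and drugs, read 167 untreated and 61.3 with 4OHT at day 4, and 1886 and 441 at day 6. The 4OHT arrays were 2.37-fold and 4.16-fold lower (limma -1.65 ± 0.23, adjusted p = 0.000743), and its second probe set was also lower on both days (-0.69 and -2.03). Its neighbour Cyp2j9 was at 7.32 and 7.31 at day 4 and at 39.1 and 15.4 at day 6, Cyp2j11 stayed between 15.7 and 24.2, and Cyp2j5 and Cyp2j13 lay under the filter.

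Cyp2b10, the classic target of the constitutive androstane receptor (Car, gene Nr1i3), read 81.2 untreated and 50.5 with 4OHT at day 4, and 851 and 132 at day 6. The difference lay almost wholly at day 6 (-0.55 and -2.55), where the 4OHT array was 5.85-fold lower. Its other 2 probe sets gave -2.63 and -2.25 at day 6, but 0.13 and -0.34 at day 4, so the direction at day 4 hung on the probe set. Limma called the brightest one (-1.55 ± 0.32, adjusted p = 0.0124), a call also lost with the level filter set on the mean. The other Cyp2b members, Cyp2b9, Cyp2b13 and Cyp2b19, lay under the filter.

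Cyp2s1, a P450 of epithelia outside the liver that oxidises retinoids and eicosanoids, lies next to Cyp2b10 on chromosome 7 but behaved otherwise over time. It read 502 untreated and 128 with 4OHT at day 4, and 520 and 95.3 at day 6. As deposited, the 2 untreated arrays were nearly equal and both stood well above the 2 arrays with 4OHT, with the scaling between the days unknown. Its differences were -1.84 and -2.27, and limma gave -2.06 ± 0.21 (adjusted p = 5.79e-05).

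Cyp4f14, which hydroxylates leukotriene B4, read 128 untreated and 25.6 with 4OHT at day 4, and 1749 and 418 at day 6. It was 3.47-fold and 4.06-fold lower with 4OHT (limma -1.91 ± 0.21, adjusted p = 9.18e-05). The 4OHT value of day 4 lies near the median of all values and holds the first fold back. The log2 differences were -2.28 and -2.06 with a pseudocount of 1, and -1.10 and -1.91 with 64. How alike the 2 days were thus depended on the pseudocount. Cyp4f14 was the only 1 of 7 Cyp4f members that fell. Cyp4f16, 2 genes away on chromosome 17, read 122 and 74.5 at day 4 and 271 and 137 at day 6 (limma, adjusted p = 0.065); it and Cyp4f13 were named after their values were seen. Cyp4f13, beside Cyp4f14, read 99.2 and 59.3 at day 4 and 76.3 and 105 at day 6, and so was lower with 4OHT at day 4 and higher at day 6. Cyp4f39 stayed between 7.55 and 31.9, and Cyp4f15, Cyp4f18 and Cyp4f41-ps lay under the filter.

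The other bright family 4 genes did not pass the test. Cyp4b1, which oxidises fatty acids and some plant toxins, read 56.5 untreated and 34.7 with 4OHT at day 4, and 412 and 194 at day 6 (-0.52 and -1.03; limma, adjusted p = 0.0712). Cyp4v3, the mouse counterpart of the fatty acid hydroxylase mutated in Bietti crystalline dystrophy, read 77.0 and 44.8 at day 4 and 311 and 273 at day 6. The 2 arrays of day 6 lay close together (-0.18, against -0.61 at day 4; limma, adjusted p = 0.455), and its second probe set gave the opposite sign at day 4 (0.09). The Cyp4a genes, fatty acid hydroxylases that Ppar alpha switches on in liver, were at most 34.0 (Cyp4a31), with Cyp4a14 and Cyp4a12a under the filter.

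Of the remaining family 2 genes, Cyp2d26 read 82.8 untreated and 28.8 with 4OHT at day 4, and 372 and 191 at day 6. It was lower on both days (-1.14 and -0.90; limma -1.02 ± 0.21, adjusted p = 0.011) and was the only Cyp2d gene of 8 above an intensity of 25.3 on any array. Cyp2u1, a hydroxylase of long-chain fatty acids, read 72.7 and 49.5 at day 4 and 136 and 33.2 at day 6. Limma called it (-1.03 ± 0.26, adjusted p = 0.0349), with most of the difference at day 6 (-0.44 and -1.63). Its second probe set, under the median of all values on every array, gave 0.18 at day 4 and -0.54 at day 6. The limma call of Cyp2u1 was also lost with the filter on the mean, on averaging probe sets of a gene and with quantile normalization.

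Cyp2e1, which oxidises ethanol and small solvents, was the only member that rose. It read 19.5 untreated and 71.2 with 4OHT at day 4, and 10.5 and 34.4 at day 6. Both untreated values lay under the median of all values and both 4OHT values above it. The 4OHT arrays were 2.45-fold and 1.90-fold higher (limma 1.11 ± 0.21, adjusted p = 0.0067). These folds are held back by the dim untreated values, and Cyp2e1 passed the level filter through its 4OHT arrays alone; with a pseudocount of 1 the log2 differences were 1.81 and 1.62. This single gene was also the count of 1 that was at least 2-fold higher at day 4.

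Family 1, the targets of the aryl hydrocarbon receptor (Ahr), gave no readable difference. Cyp1a1 stayed between 8.22 and 19.9, Cyp1a2 between 7.54 and 21.8, and Cyp1b1 between 9.40 and 21.0. All 28 members under the filter together had median differences of 0.02 at day 4 and 0.01 at day 6. At day 4 their differences ran from -0.56 to 0.44, and those of day 6 from -0.23 to 0.34, a span that values near background keep small. Among them were Cyp2r1, a vitamin D hydroxylase, and Cyp2f2 and Cyp2g1, known from airway and olfactory epithelium, none of which exceeded 9.73.

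Along the chromosomes, bright and dim members lay side by side in their clusters. On chromosome 19 the gene order Cyp2c55, Cyp2c65, Cyp2c29 opened a run of 10 measured Cyp2c genes, and of the 7 that follow only Cyp2c68 passed 54.7 on any array. On chromosome 7 Cyp2s1 and Cyp2b10 stood first of 8, and the following 6 did not exceed 47.6 (Cyp2a12). On chromosome 17 the brighter Cyp4f16, Cyp4f14 and Cyp4f13 stood among dim Cyp4f39, Cyp4f15 and Cyp4f41-ps. On chromosome 15 only Cyp2d26, the last of 8, was bright. On chromosome 5 Cyp3a11 and Cyp3a25, the last of 4 in a row, both fell, and in the chromosome 4 run of Cyp2j genes only Cyp2j6 did. The order is that of RefSeq genes measured here, and unmeasured genes between them are not analysed here.

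**Figure D3:**
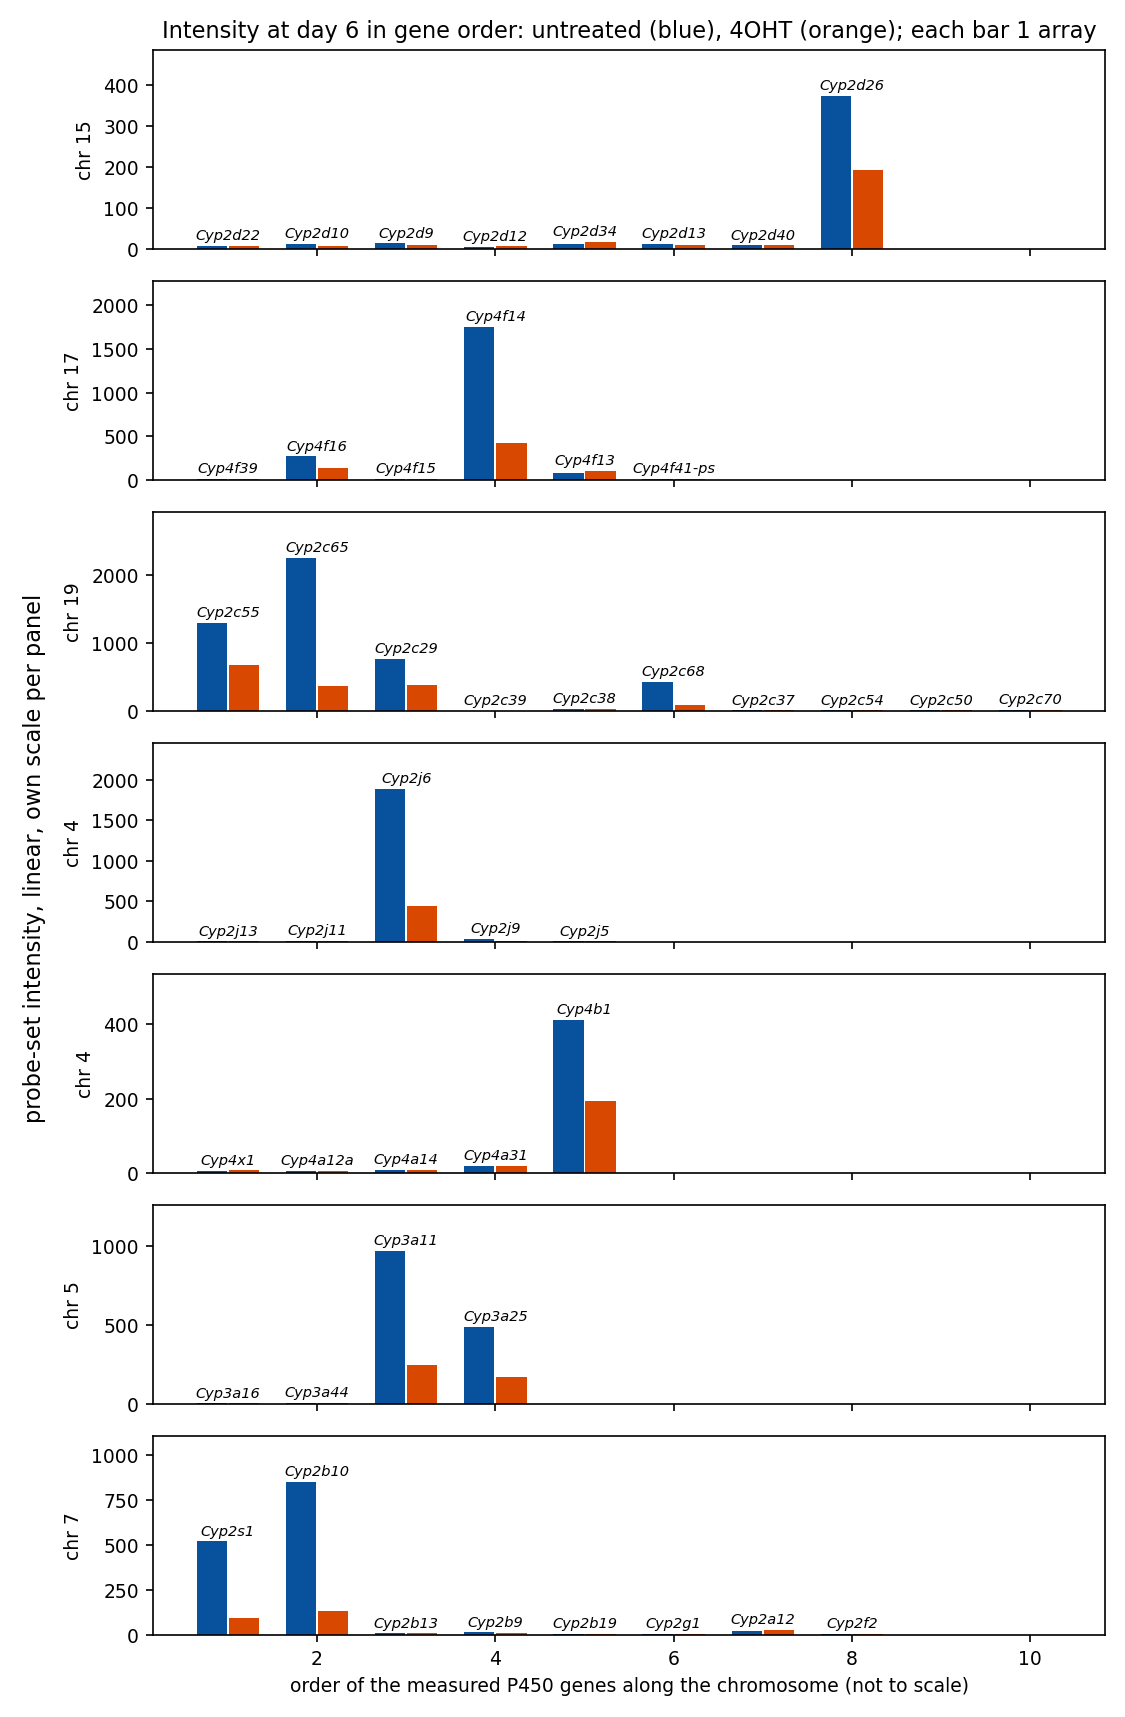
Intensity at day 6 of P450 genes in the order in which they lie along 7 chromosome clusters (untreated blue, 4OHT orange, each bar 1 array, linear axes that start at 0 and differ between panels). In each cluster 1 to 4 genes carry nearly all of the signal, and in those the orange bar is lower except for Cyp4f13 on chromosome 17.

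The bright P450 genes were mostly higher at day 6 than at day 4. In untreated organoids 15 of the 28 members past the filter were at least 2-fold higher at day 6 than at day 4 and 1, Cyp4f39 (31.9 and 7.55; named after its values were seen), was at least 2-fold lower, against 24.1% and 5.29% of genes. Cyp4f39 passed the level filter through that day 4 array alone. Cyp2j9, among the 15 higher (7.32 and 39.1), and Cyp2c23 passed it through the untreated day 6 array alone, and both enter the medians below. With the filter on the mean 14 of 21 were higher and 0 lower. With 4OHT 13 were higher and none lower, against 16.4% and 2.69%. The median difference of the members was 1.15 untreated and 0.72 with 4OHT, against 0.16 and 0.04 over all genes past the filter. These counts carry the unknown scaling between the days and were not tested. Median centring gave 15 higher and none lower of 26 untreated, and quantile normalization 14 and none, while over all genes the share that was higher among genes at least 2-fold apart was 82.0% as deposited, 89.2% after median centring and 48.9% after quantile normalization.

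Cyp2c65 was 16.1-fold higher at day 6 without 4OHT and 6.99-fold higher with it. Cyp4f14 differed 12.2-fold and 10.4-fold, and Cyp3a11 8.67-fold and 6.88-fold, so that these genes were higher at day 6 in both arms. Which arm of Cyp4f14 and of Cyp3a11 differed more hung on the processing, as their 4OHT values of day 4 lie near the median. With a pseudocount of 1 the log2 differences were 3.76 untreated and 3.98 with 4OHT for Cyp4f14, and 3.30 and 3.43 for Cyp3a11. Quantile normalization gave 2.97 and 3.21 for Cyp4f14, and 2.46 and 2.63 for Cyp3a11. Cyp2b10 was 8.92-fold higher without 4OHT and 2.23-fold with it, and Cyp2c68 13.4-fold and 2.37-fold. The Cyp2b10 probe set that is not of the _s_at kind gave log2 differences of 1.80 without 4OHT and -0.12 with it. Whether Cyp2b10 was higher at day 6 with 4OHT thus hung on the probe set. Cyp3a13 was 4.91-fold and 5.03-fold higher, and Cyp2d26 3.93-fold and 4.63-fold, nearly the same in both arms. Cyp2s1 stood apart with 0.05 without 4OHT and -0.38 with it on the log2 scale; quantile normalization moved these to -0.62 and -0.83, so no direction over time can be given for it. Cyp2e1 was lower at day 6 in both arms, by 0.42 and 0.79 on the log2 scale.

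**Figure D4:**
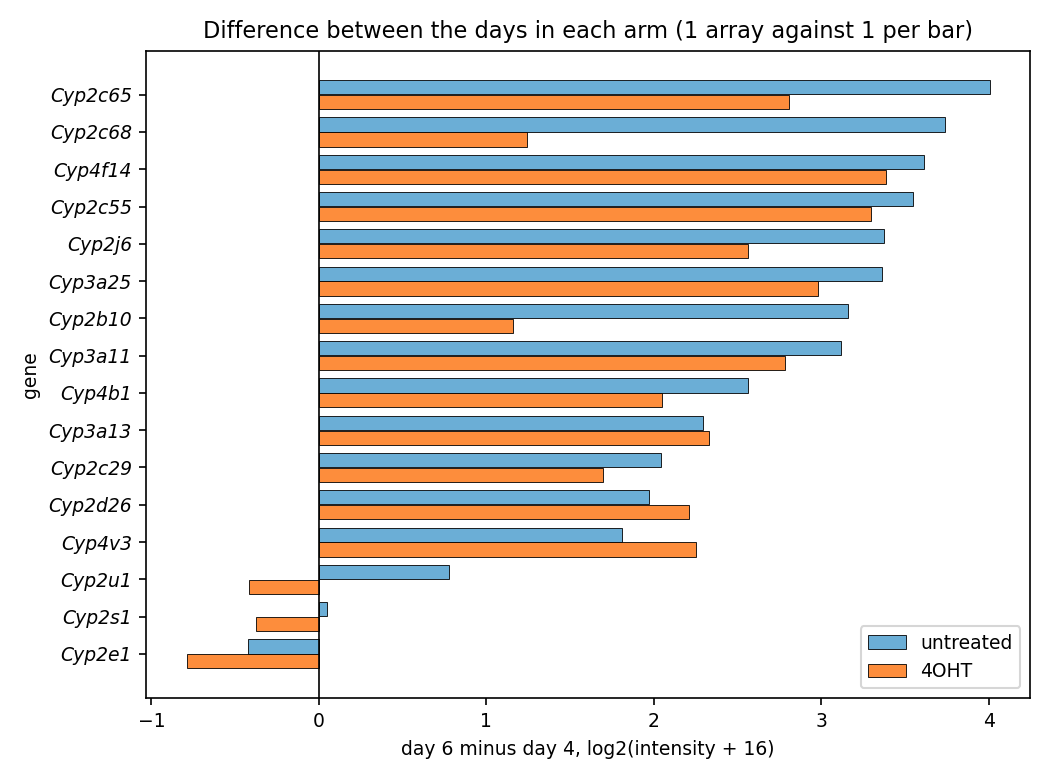
Difference between day 6 and day 4 on the log2(intensity + 16) scale for the 16 named P450 genes, untreated (blue) and with 4OHT (orange), each bar 1 array against 1. Cyp2c65 reaches 4.01 without 4OHT, Cyp2b10 and Cyp2c68 have far shorter bars with 4OHT, and Cyp2s1, Cyp2u1 and Cyp2e1 stay within 1 of 0.

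Among the analysed genes of the electron donors and of the heme supply of these enzymes, 1 gene of each fell. P450 oxidoreductase (Por) and Fdxr, the other listed redox partners, are not analysed here. Of 7 P450 redox partners tested, Cyb5a (cytochrome b5) fell (-0.90 ± 0.21, limma adjusted p = 0.0238) and none rose; the list's medians were 0.09 at day 4 and -0.45 at day 6. Of 12 genes of heme synthesis and breakdown, Alas1, the rate-limiting enzyme of heme synthesis, fell (-0.84 ± 0.21, limma adjusted p = 0.0367), with medians of 0.20 and 0.05. The other heme genes that the naming rule took, Alad, Uros and Fech, were higher with 4OHT on both days and did not pass. Of 11 tested genes of P450 families 5 and above, Cyp51 of cholesterol synthesis fell (-1.20 ± 0.25, limma adjusted p = 0.0113). The others that the naming rule took were higher on both days and did not pass: Cyp27a1 (0.53 and 0.48), Cyp21a1 (0.37 and 0.24) and Cyp11a1 (0.30 and 0.16). Over all 19 measured genes of that list, those under the level filter included, the medians were 0.08 and 0.01. None of these lists held a gene that rose. Over all genes past the filter 2.25% fell and 0.970% rose, to be read beside the counts of these and the following lists.

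Of 22 transcription factors that act on P450 genes, 3 fell: Nr1h4, the bile acid receptor (-1.07), Cebpa (-0.93) and Pparg (-0.91). The other 19 did not pass the test; the following 6 were named after their values were seen. Nr1i2 (Pxr) read 56.3 untreated and 59.3 with 4OHT at day 4, and 136 and 138 at day 6. Nr1i3 (Car) read 52.7 and 28.8 at day 4 and 52.4 and 34.4 at day 6 (-0.53 ± 0.21; limma, adjusted p = 0.247). Hnf4a, an intestinal and hepatic activator of P450 genes, read 2346 and 2362 at day 4 and 3299 and 2820 at day 6. Nr1i2 differed by 0.06 and 0.01, and Hnf4a by 0.01 and -0.22. Ppara, the receptor that acts on Cyp4a genes, read 53.3 and 67.6 at day 4 and 149 and 44.0 at day 6, higher with 4OHT at day 4 and lower at day 6 (0.27 and -1.46; limma, adjusted p = 0.402). The glucocorticoid receptor Nr3c1 differed by -0.32 and -1.05 (limma, adjusted p = 0.141), and Rxra, the partner of Pxr, Car and Ppar alpha, by 0.07 and -0.70 (limma, adjusted p = 0.612).

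Target genes outside the P450 families, read as lists, showed the following. Of 6 tested Pxr and Car targets 2 fell, the carboxylesterase Ces2a (-2.62 ± 0.27; 383 and 87.8 at day 4, 2339 and 225 at day 6) and the retinal dehydrogenase Aldh1a1 (-1.39 ± 0.27), and none rose. Of 10 Ppar alpha targets 4 fell, the fatty acid oxidation genes Acaa1b (-1.87), Ehhadh (-0.95) and Acadm (-0.83) and the fatty acid carrier Fabp1 (-1.53), which is also an enterocyte marker. Neither of 2 tested Ahr targets passed. Among 10 epoxide hydrolases and eicosanoid enzymes, Hpgd, which inactivates prostaglandins, fell (-0.95). Of the others that the naming rule took from that list, Ephx1 (0.40 and 0.44) and Ptgds (0.10 and 0.12) were higher on both days. Ephx2 (-0.18 and -0.87) was lower on both, and none of these passed. Among 6 flavin monooxygenases and other oxidases, Fmo5 (-1.33) and Maoa (-1.04) fell. Over all measured genes of a list, those under the level filter included, the median differences of the Pxr and Car list were -0.34 and -0.62 (7 genes). Those of the Ppar alpha list were -0.18 and -0.75 (12 genes). The epoxide hydrolase and eicosanoid list gave 0.08 and 0.02 (14 genes), and the list of flavin monooxygenases and other oxidases -0.19 and -0.39 (10 genes). All measured genes, with no level filter, gave 0.03 and 0.00.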

How the data were processed

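Total RNA was labelled from 100 ng by a 3' in vitro transcription method and hybridised to Affymetrix mouse arrays, per the labels' protocols. Values were deposited as linear intensities, 1 per probe set and array; background correction, normalization and any scaling between the days are not given in the sources used here. Probe sets naming 1 gene were kept, and no column was left out.

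Differences were taken on log2(intensity + 16). A gene counted as higher or lower at 2-fold or more, with no p-value, since each group holds 1 array. Differences over both days were tested with limma (version 3.58.1, R 4.3.3) on 4OHT and day; "rose" and "fell" refer to it. The fit was tested on simulated data with errors drawn from its own prior and the same 4OHT effect on both days. That simulation does not cover spread between cultures or effects that differ between the days. Other steps ran in Python 3.11.15 (pandas 2.3.3, numpy 2.4.6, matplotlib 3.10.9).

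Named members passed the level filter and were at least 2-fold apart on either day, called by limma, or among the 10 brightest; other genes were up to 4 per list by the smaller difference of the days. The members and lists were chosen with earlier results of these data known. Alternatives covered the filter, pseudocount, threshold, probe-set choice, scaling, day term and leaving out each array. Protein sequences are not analysed here.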

Additional observations from a re-analysis of the deposited data

Results flagged for a closer look

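Cyp2c68 differed in opposite directions with 4OHT on the 2 days: the difference at day 6 minus that at day 4 was -2.50 on the log2(intensity + 16) scale. Its day 4 values, 17.0 and 27.1, lie about the median of all values.

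Over time, Cyp2u1 was higher at day 6 without 4OHT and lower with it, so that the change with 4OHT minus that without was -1.19. For Cyp2s1 the same value was -0.423, with a change of only 0.05 without 4OHT; after quantile normalization both arms of Cyp2s1 were lower at day 6. Each of these sets 1 array against 1, and none of the 3 differences was tested.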

How the results depend on the processing

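Limma called 10 members lower and 1 higher. Without a level filter, with a pseudocount of 64 and without the day term it called 0 lower and 0 higher, with a pseudocount of 1 it called 4 lower, and over all genes it called 0 in the first 3 and 47 in the last, against 425; unadjusted p under 0.05 was met by 2050, 1644, 70 and 1489 genes. Leaving out each array in turn, with no day term left in the fit, gave between 0 and 8 lower calls and 0 higher calls; the 8 came without the untreated day 4 array, and leaving out any other array gave 0. In that fit the change between the days enters the 4OHT difference by construction, so members that differed between the days could turn their sign. These did: Cyp2b10 from -3.13 to 0.031, Cyp2c29 from -1.80 to 0.24, Cyp2c55 from -2.57 to 0.98, Cyp2c65 from -3.94 to 0.063, Cyp2c68 from -2.73 to 1.01, Cyp2d26 from -2.13 to 0.083, Cyp2j6 from -3.34 to 0.038, Cyp3a13 from -2.23 to 0.10, Cyp3a25 from -2.91 to 0.45, Cyp4b1 from -2.05 to 0.51, Cyp4v3 from -1.52 to 0.73. Cyp2s1, Cyp4f14, Cyp3a11, Cyp2u1 and Cyp2e1 kept their direction in it.

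With a pseudocount of 64, 2 members were at least 2-fold lower on both days, 2 at day 4, and 0 higher at day 4, and the median at day 4 was -0.32. With a pseudocount of 1, 1 member was higher on both days and 1 at day 6. At 1.5-fold, 11 were lower on both days and 14 at day 4, with 1 higher on both days and 1 at day 6; at 3-fold, 2 were lower on both days and 2 at day 4, with 0 higher at day 4. Without the level filter the medians were -0.10 and -0.048 over all 56 members, and with the filter at the 75th percentile the day 6 median was -1.24. Median centring called 14 of 26 members lower and the mean of all probe sets 13 of 26, in both cases with Cyp2c55, Cyp2c29 and Cyp4b1 among them. Quantile normalization lost Cyp2u1.

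The day term pairs the 2 arrays of each day, so the calls rest on that pairing, and the labels number no replicates. With 1 array per group the number of arrays limits the precision, and members near the median of all values, among them Cyp1a2, Cyp1b1 and Cyp2j11, have differences that the pseudocount holds near 0.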

Other observations

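Probe sets that name a member together with another gene were left out of the 56. There were 4. The 1 shared by Cyp4f37 and Cyp4f16 read 92.2 untreated and 60.7 with 4OHT at day 4, and 173 and 100.3 at day 6, lower with 4OHT on both days (-0.50 and -0.70), as was the probe set of Cyp4f16 alone (-0.61 and -0.91). Of the 56 members, 4 rest on probe sets whose probes match more than 1 transcript, and 2 of these 4, Cyp2c65 and Cyp2b10, are among the 10 that fell.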
